A study of Homo sapiens with 15 samples.

Results

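hsa-miR-105-5p, hsa-miR-105-3p, hsa-miR-767-5p and hsa-miR-767-3p are the mature products of 3 small hairpins that lie together inside the GABRA3 gene on the X chromosome. These 4 miRNAs, of 1707 listed in the files, were chosen by measured values of the same libraries, because their counts fell in cells that had lost HIF1A. All 4 passed the filter on low counts, which kept 562 miRNAs. The levels that differ with HIF1A are therefore given below as a description without a test, and tests are given only between groups that had the same HIF1A status.

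The cells were U87-MG, an established glioblastoma cell line, and the measurement was miRNA-Seq, which counts the reads of each mature miRNA. There were 5 groups of 3 libraries. Control cells, labelled WT and without HIF1α or HIF2α interference, were kept for 24 h in normoxia (21% O2) or in hypoxia (1% O2). The other groups were HIF1α-KO cells (labelled Hif1a knock-out), HIF2α-KO cells (labelled Hif2a knock-out) and HIF1α/HIF2α-KO cells that carried both knockouts, each kept for 24 h in 1% O2. The knockouts were made with CRISPR/Cas9 by lentiviral transduction of guide RNAs into the line, and the sources used here mention no isolation of single clones. No knockout group was kept in normoxia, and the messenger RNAs of the targeted genes were not measured, so the knockouts cannot be checked in these counts. Nothing in the labels says that the replicates were separate cultures, so p-values measure only the spread between these libraries.

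HIF1α and HIF2α are the oxygen-regulated subunits of the hypoxia-inducible factors. With oxygen present they are hydroxylated and degraded, and in hypoxia they accumulate, pair with HIF1β and activate target genes. miR-105 and miR-767 are known as cancer-germline miRNAs: their primary transcript is silent in most healthy adult tissues, is made in germ cells, and is switched on in some tumours whose DNA has lost methylation. miR-767 is known to target the messenger RNAs of TET1 and TET3, enzymes that oxidise 5-methylcytosine, and miR-105 that of the tight junction protein ZO-1. GABRA3 itself encodes a subunit of the GABA-A receptor.

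The mature sequences are shown because the seed, bases 2 to 8 from the 5′ end, is the stretch by which a miRNA recognises its targets, and the 4 members have 4 different seeds. The sequences are those of RefSeq, 5′ to 3′, with the seed in capitals.
hsa-miR-105-5p: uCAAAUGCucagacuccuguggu
hsa-miR-105-3p: aCGGAUGUuugagcaugugcua
hsa-miR-767-5p: uGCACCAUgguugucugagcaug
hsa-miR-767-3p: uCUGCUCAuaccccaugguuucu
Among the 2370 mature human miRNAs of the RefSeq table, 1 other had the seed of miR-105-5p (miR-7853-5p), and no other had the seed of miR-105-3p, miR-767-5p or miR-767-3p. None of the other miRNAs that passed the filter had a seed of these 4.

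The 7 letters of the miR-767-5p seed also stand in the miR-29 family, shifted by 1 base: they occupy positions 3 to 9 of miR-29a-3p, miR-29b-3p and miR-29c-3p, where they are printed in capitals. The family is shown because it is well known to target the same TET messenger RNAs. The letters occurred in 0.211% of the 2370 mature miRNAs, miR-767-5p included. Outside miR-767-5p and the miR-29 family, miR-218-1-3p also held them.
hsa-miR-29a-3p: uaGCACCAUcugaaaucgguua
hsa-miR-29b-3p: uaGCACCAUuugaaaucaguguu
hsa-miR-29c-3p: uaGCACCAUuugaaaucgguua

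The 3 hairpins lie on the minus strand of chromosome X within 2274 bases. In the GRCh38 annotation (GENCODE for the gene model, RefSeq for the hairpins) MIR105-2 occupies chrX:152394412-152394492, MIR767 occupies chrX:152393421-152393529 and MIR105-1 occupies chrX:152392219-152392299, and all 3 fall in intron 1 of a 10-exon transcript of GABRA3. MIR105-2, the first in the direction of transcription, begins 56866 bases from the GABRA3 start. Another annotated transcript of the gene starts 2722 bases beyond the end of MIR105-1, so that the hairpins are upstream of it. The hairpin sequences (RefSeq, GRCh38.p14, 5′ to 3′, both mature arms in capitals) are shown because the miR-105 arms come from 2 hairpins.
MIR105-2: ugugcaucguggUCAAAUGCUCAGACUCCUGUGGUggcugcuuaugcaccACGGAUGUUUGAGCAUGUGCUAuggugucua
MIR767: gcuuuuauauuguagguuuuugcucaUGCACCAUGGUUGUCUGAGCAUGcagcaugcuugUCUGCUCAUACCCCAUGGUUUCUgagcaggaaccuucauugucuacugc
MIR105-1: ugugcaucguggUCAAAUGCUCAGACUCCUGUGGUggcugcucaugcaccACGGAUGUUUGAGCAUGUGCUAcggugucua
MIR105-1 and MIR105-2 were identical at 79 of 81 positions (97.5%), and their differences, counted from 1 at the 5′ end with the MIR105-1 base first, were C43U and C73U. Both differences lie outside the mature arms, so a read of a miR-105 arm cannot be given to one hairpin or the other. The hairpins of miR-105 and miR-767 also share short stretches: the longest run common to MIR105-1 and MIR767 had 13 bases, UGCUCAUGCACCA.

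**Figure D1:**
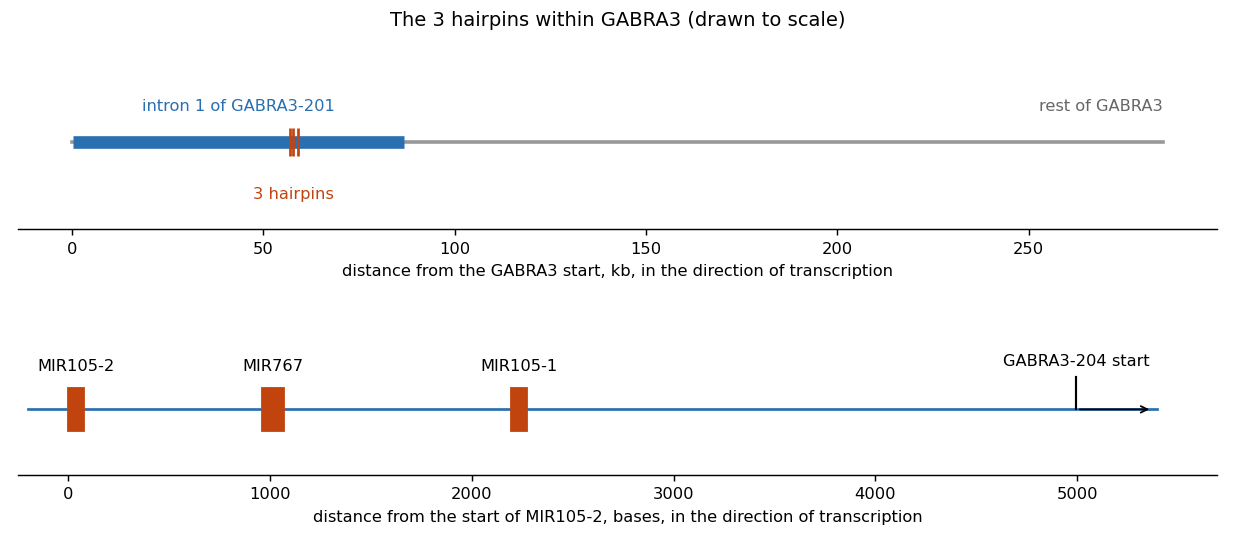
The upper line draws GABRA3 to scale in kb from its start, with intron 1 as a thick bar and the 3 hairpins as vertical marks; the lower line enlarges the cluster, in bases from the start of MIR105-2. The hairpins stand within 2274 bases of each other, 56866 bases into the gene, and the start of the other GABRA3 transcript comes after all 3.

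Library totals ranged from 10360337 to 22496373 counts, so that 3 counts, the floor used for detection, correspond to at most 0.290 CPM (counts scaled to the library total). Every level below is in CPM after TMM normalisation, which rescales those totals, with factors here of 0.898 to 1.09. Of the markers of the labelled cell type, miR-21-5p, abundant in glioma, ranged from 160000 to 258000 CPM and miR-10b-5p from 2260 to 4030 CPM, while neuronal miR-124-3p was at 0 in 10 of 15 libraries and liver-specific miR-122-5p was not listed. Of the markers of other cells, 3 of 8 blood miRNAs passed the filter (summed level 4.54 to 24.0 CPM over the libraries), as did 6 of 7 epithelial miRNAs (37.6 to 118 CPM, miR-203a-3p not listed) and 3 of 4 muscle miRNAs (1.95 to 46.4 CPM). Of the neural list, 3 of 5 passed, led by miR-9-5p at 1830 to 9460 CPM. Endothelial miR-126 (both arms summed, total-count CPM) split the libraries into 6 with 3.90 to 6.95 CPM and 9 with 14.5 to 51.9 CPM across the groups. The lower set held 2 control hypoxia libraries, 2 HIF1α-KO libraries, 1 HIF2α-KO library and 1 HIF1α/HIF2α-KO library.

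The 5p arms were the abundant products of both miRNAs. Averaged over the 15 libraries, miR-105-5p stood at 55.9 CPM and was the 147th most abundant of the 1707 miRNAs, and miR-767-5p stood at 50.1 CPM and was the 153rd. The 3p arms were the minor products, miR-767-3p at 3.11 CPM in 352nd place and miR-105-3p at 2.87 CPM in 364th place. In raw reads this was 338 to 1767 counts per library for miR-105-5p and 290 to 1357 for miR-767-5p, against 12 to 72 for miR-105-3p and 17 to 93 for miR-767-3p.

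miR-105-5p, known in breast cancer as a miRNA secreted in exosomes, was highest in the control cells. Its level in normoxia was 70.7, 73.6 and 73.0 CPM in replicates 1, 2 and 3, and in hypoxia 67.3, 76.4 and 83.3 CPM. In the HIF1α-KO libraries it was 38.5, 36.6 and 30.4 CPM, in the HIF2α-KO libraries 66.5, 51.8 and 48.6 CPM, and in the HIF1α/HIF2α-KO libraries 44.8, 37.9 and 39.8 CPM. The means were 72.4 ± 1.53 CPM in control normoxia, 75.6 ± 8.03 in control hypoxia, 35.2 ± 4.24 in HIF1α-KO, 55.6 ± 9.57 in HIF2α-KO and 40.9 ± 3.59 in HIF1α/HIF2α-KO (SD, n = 3). The 6 libraries without HIF1A were thus all below the 9 with it, the HIF2α-KO libraries were in between, and the HIF1α-KO and double knockout libraries overlapped.

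miR-767-5p, the arm whose seed letters also stand in the miR-29 family at shifted positions, was also lowest in the 2 groups without HIF1A. In control normoxia it stood at 64.5, 68.2 and 65.7 CPM and in control hypoxia at 63.6, 58.6 and 54.4 CPM. The HIF1α-KO libraries had 36.7, 29.5 and 42.6 CPM, the HIF2α-KO libraries 64.9, 60.3 and 46.8 CPM, and the HIF1α/HIF2α-KO libraries 34.1, 37.8 and 23.8 CPM. The group means followed the order control normoxia (66.1 ± 1.91 CPM), control hypoxia (58.9 ± 4.61), HIF2α-KO (57.3 ± 9.40), HIF1α-KO (36.3 ± 6.55) and HIF1α/HIF2α-KO (31.9 ± 7.27; SD, n = 3). Control hypoxia and HIF2α-KO overlapped, HIF1α-KO and the double knockout overlapped, and no library without HIF1A reached the lowest library with it.

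miR-105-3p, the minor arm, was low everywhere. It stood at 3.74, 3.39 and 3.35 CPM in control normoxia and at 5.71, 3.11 and 2.91 CPM in control hypoxia. It was at 1.30, 1.37 and 1.08 CPM in HIF1α-KO, at 3.29, 4.57 and 1.90 CPM in HIF2α-KO and at 2.64, 2.80 and 1.80 CPM in HIF1α/HIF2α-KO. The HIF1α-KO libraries were below all other libraries, while the double knockout overlapped HIF2α-KO, with means of 1.25 ± 0.152, 2.42 ± 0.537 and 3.25 ± 1.33 CPM in HIF1α-KO, HIF1α/HIF2α-KO and HIF2α-KO (SD, n = 3).

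miR-767-3p, the minor arm of its hairpin, had a like order. Control normoxia held 4.23, 3.24 and 3.61 CPM and control hypoxia 5.71, 4.02 and 3.28 CPM. HIF1α-KO held 1.79, 1.91 and 1.53 CPM, HIF2α-KO 2.50, 2.66 and 3.99 CPM, and HIF1α/HIF2α-KO 2.96, 2.50 and 2.70 CPM. The HIF1α-KO libraries (mean 1.74 ± 0.194 CPM, SD, n = 3) were again below every other library, and the double knockout (2.72 ± 0.230 CPM) overlapped HIF2α-KO (3.05 ± 0.814 CPM).

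**Figure D2:**
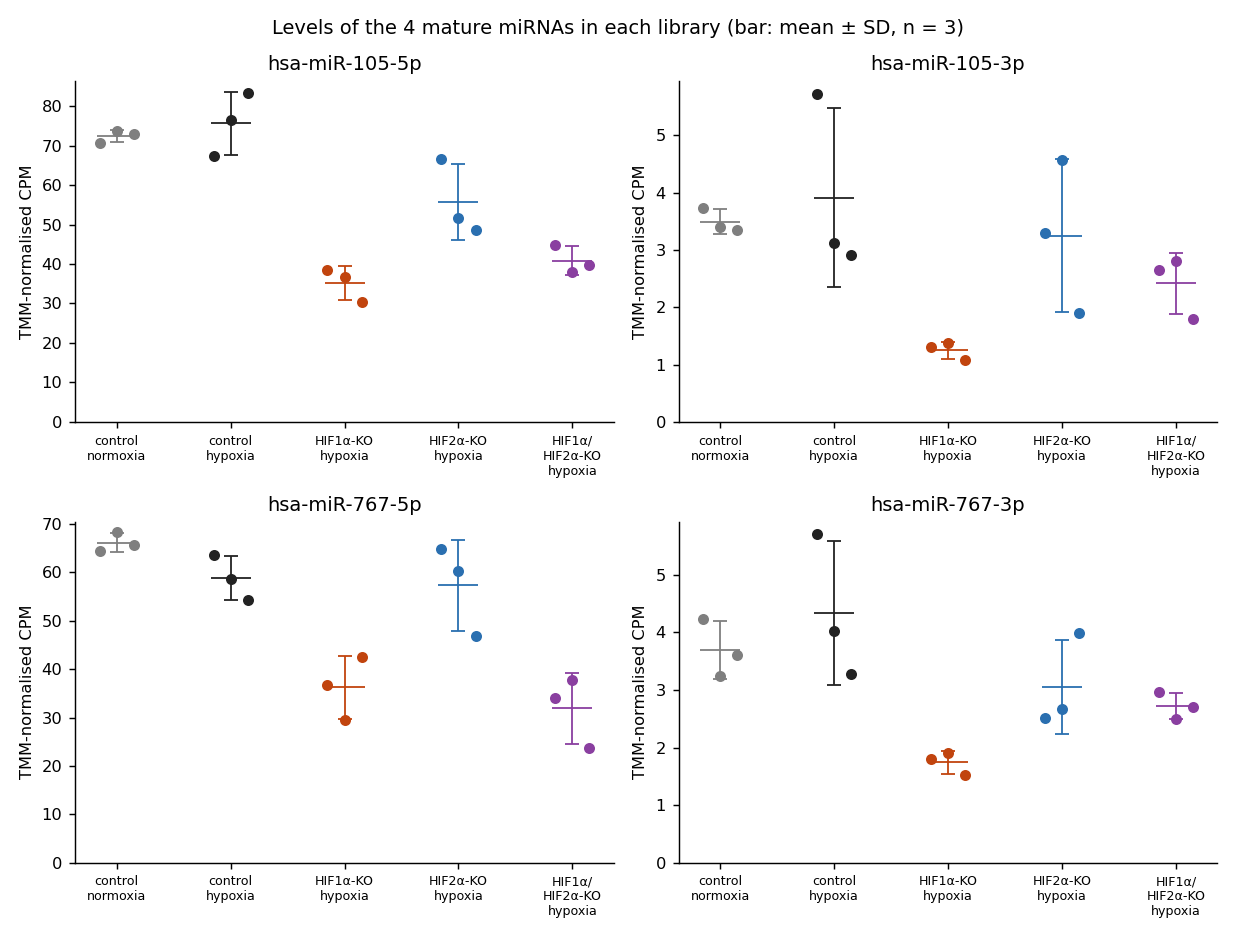
Each panel plots 1 mature miRNA, with a point for each library, a horizontal bar for the group mean and whiskers of 1 SD (n = 3), in TMM-normalised CPM on an axis from 0. For miR-105-5p and miR-767-5p both groups without HIF1A lie below the rest, whereas for miR-105-3p and miR-767-3p the HIF1α-KO group is lowest and the HIF1α/HIF2α-KO group overlaps HIF2α-KO.

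The question put to HIF1α-KO against control cells in hypoxia is which miRNAs depend on HIF1α at 1% O2, and it is the comparison by which the members were picked. The fitted levels of all 4 were lower in HIF1α-KO: miR-105-5p by 2.15-fold (log2 fold change -1.10, SE 0.16), miR-105-3p by 3.05-fold (-1.61, SE 0.34), miR-767-5p by 1.62-fold (-0.70, SE 0.20) and miR-767-3p by 2.45-fold (-1.29, SE 0.25). The median of the 4 was -1.20 on the log2 scale and that of all 562 miRNAs -0.05. For 4 of 4 members every HIF1α-KO library was below every control library, as it was for 11.4% of all 562, a comparison from which nothing is read because it chose them. Ranked from the lowest log2 fold change upwards, miR-105-3p was the 3rd of the 562, miR-767-3p the 7th, miR-105-5p the 8th and miR-767-5p the 28th. Just ahead of them stood both arms of miR-210, the best known miRNA target of HIF1α, with -1.96 (SE 0.30) for miR-210-5p and -1.76 (SE 0.31) for miR-210-3p. Within the 6 libraries with low miR-126, the log2 ratio of mean CPM in HIF1α-KO (n = 2) to control hypoxia (n = 2) was -1.09 for miR-105-5p, -1.17 for miR-105-3p, -0.77 for miR-767-5p and -0.98 for miR-767-3p. Between the single libraries of the set with high miR-126 it was -1.15, -2.41, -0.58 and -1.90 in the same order. Their sign was fixed beforehand, since no HIF1α-KO library reached a control library. The summed muscle miRNAs, not tested, had higher medians where HIF1A was lost, at 36.3 CPM in HIF1α-KO (9.98 to 45.7) and 33.7 CPM in HIF1α/HIF2α-KO (20.8 to 46.4) beside 21.9 CPM in control hypoxia (7.56 to 28.7), 16.5 CPM in HIF2α-KO (3.21 to 20.1) and 3.62 CPM in control normoxia (1.95 to 8.44). None of the 4 muscle miRNAs was at 0 in every library, and the HIF1α/HIF2α-KO libraries did not overlap those of HIF2α-KO. The high sums came mainly from miR-1-3p, at 0.975 to 41.8 CPM over the libraries. miR-133a-3p, miR-133b and miR-206 reached at most 3.59, 1.55 and 0.227 CPM, so the sums do not describe the muscle list as a whole. The part of miR-126 and of the muscle miRNAs in the members' values was not tested.

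In HIF1α/HIF2α-KO against control cells in hypoxia, a second comparison that differs in HIF1A, the 4 members were again lower, at log2 fold changes of -0.89 (SE 0.16) for miR-105-5p, -0.67 (SE 0.32) for miR-105-3p, -0.88 (SE 0.20) for miR-767-5p and -0.66 (SE 0.24) for miR-767-3p. No library overlapped for 4 of 4 members, against 16.7% of the 562 miRNAs. Nothing is read from this count, because the members were chosen for a fall with HIF1A loss. Their ranks from the lowest log2 fold change were here 44 for miR-105-5p, 45 for miR-767-5p, 66 for miR-105-3p and 69 for miR-767-3p. The median of the members was -0.78 on the log2 scale and that of all 562 miRNAs -0.02. Control hypoxia replicate 1, the highest library for both 3p arms, weighed on them: without it the values were -0.29 for miR-105-3p and -0.41 for miR-767-3p. Both comparisons use the same 3 control libraries.

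Against the HIF2α-KO background, which shares no library with those controls, the additional loss of HIF1A went with lower 5p arms. The HIF1α/HIF2α-KO libraries were the same as in the comparison above, so the 2 comparisons are not independent. miR-767-5p differed by -0.85 (SE 0.20) and miR-105-5p by -0.45 (SE 0.16) on the log2 scale between HIF1α/HIF2α-KO and HIF2α-KO, and the libraries of the 2 groups did not overlap. For miR-105-3p (-0.42, SE 0.32) and miR-767-3p (-0.16, SE 0.25) they overlapped, and without HIF2α-KO replicate 3 the value of miR-767-3p was 0.12. The share without overlap was thus 2 of 4 members, beside 11.7% of the 562 miRNAs, and nothing is read from it given how the members were chosen. HIF2α-KO against HIF1α-KO, the contrast of the 2 single knockouts, had higher levels in HIF2α-KO for all 4: miR-105-5p by 1.58-fold (log2 0.66, SE 0.16), miR-105-3p by 2.57-fold (1.36, SE 0.34), miR-767-5p by 1.58-fold (0.66, SE 0.20) and miR-767-3p by 1.73-fold (0.79, SE 0.25). Every HIF2α-KO library was above every HIF1α-KO library for 4 of 4 members and for 11.0% of the 562. These HIF1α-KO libraries are among those by which the members were picked.

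**Figure D3:**
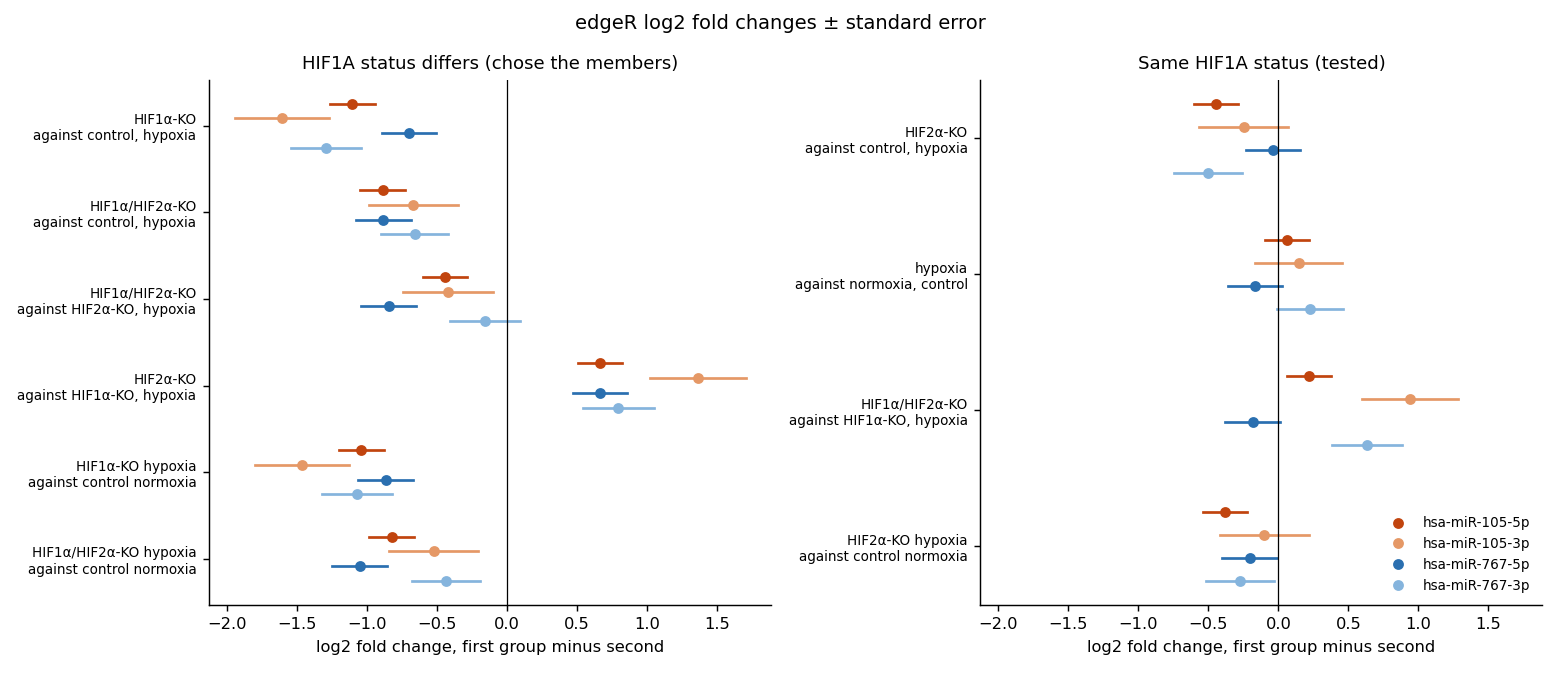
Points are edgeR log2 fold changes of the 4 members, first group minus second, and lines span 1 standard error on each side. The left panel holds the 6 comparisons whose groups differ in HIF1A, untested because the members were chosen for a fall with HIF1A loss. The right panel holds the 4 tested comparisons. On the left the points lie between -1.61 and 1.36, and on the right, where no member was called, between -0.50 and 0.94.

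The remaining comparisons have the same HIF1A status on both sides and were tested, although they use the libraries that chose the members. The members were chosen for high control hypoxia and low HIF1α-KO values, which by itself favours some directions where these groups enter. For these comparisons the share of all 562 miRNAs without overlap was not counted, so nothing is read from libraries that do not overlap. In control cells, hypoxia against normoxia asks whether 24 h at 1% O2 moves the members. None of the 4 was called by edgeR's quasi-likelihood test, with Benjamini-Hochberg adjustment over the 562 miRNAs. miR-105-5p differed by 0.06 on the log2 scale (95% interval -0.28 to 0.40, edgeR adjusted p = 0.914), miR-105-3p by 0.15 (-0.52 to 0.82, edgeR adjusted p = 0.885), miR-767-5p by -0.17 (-0.58 to 0.25, edgeR adjusted p = 0.836) and miR-767-3p by 0.22 (-0.28 to 0.73, edgeR adjusted p = 0.836). As folds, the intervals ran from 0.827 to 1.32 for miR-105-5p and from 0.667 to 1.19 for miR-767-5p. miR-767-5p was lower in every hypoxia library than in every normoxia library, and the other members overlapped. The median log2 fold change was 0.10 for the members and 0.01 for all 562. The background was equally empty: 0% of the 562 miRNAs were called, 35 had an unadjusted p under 0.05, none of them a member, and DESeq2 and limma called 0 as well. miR-210-3p, the textbook hypoxia miRNA, stood at 1187 ± 151 CPM in normoxia and 1042 ± 109 CPM in hypoxia (SD, n = 3; log2 fold change -0.19, SE 0.30, edgeR adjusted p = 0.841).

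Loss of HIF2A alone, in HIF2α-KO against control cells in hypoxia, also gave no call. miR-105-5p was 1.36-fold lower (log2 -0.44, 95% interval -0.78 to -0.10, unadjusted p = 0.0141 and adjusted p = 0.220 by edgeR), and its HIF2α-KO libraries were all below the control libraries by a narrow margin, 66.5 against 67.3 CPM at the closest. miR-767-3p differed by -0.50 (-1.02 to 0.02, edgeR adjusted p = 0.339), miR-105-3p by -0.25 (-0.93 to 0.43, edgeR adjusted p = 0.771) and miR-767-5p by -0.04 (-0.46 to 0.38, edgeR adjusted p = 0.953), and the libraries of these 3 overlapped. All 4 fitted values were negative, with a median of -0.35 on the log2 scale beside -0.01 for all 562 miRNAs. High control hypoxia values entered the choice of the members, which by itself favours lower values here. Of the 562 miRNAs 0% were called, 86 had an unadjusted p under 0.05, miR-105-5p among them, and DESeq2 and limma called 0. Without HIF2α-KO replicate 1 edgeR called 10, no member among them.

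Set against normoxia in place of hypoxia, the HIF2α-KO libraries differed in both HIF2A and oxygen. miR-105-5p was lower by 0.38 on the log2 scale (95% interval of the log2 fold change -0.72 to -0.04, unadjusted p = 0.0304, edgeR adjusted p = 0.317), with no overlap between the libraries. The other 3 members overlapped, with log2 fold changes of -0.10 for miR-105-3p, -0.21 for miR-767-5p and -0.28 for miR-767-3p (edgeR adjusted p = 0.917, 0.684 and 0.645). The median was -0.24 for the 4 members and 0.00 for all 562. Here too 0% of the 562 miRNAs were called, 85 had an unadjusted p under 0.05, DESeq2 and limma called 0, and edgeR called 18 without HIF2α-KO replicate 1, no member among them.

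Loss of HIF2A in cells already without HIF1A, HIF1α/HIF2α-KO against HIF1α-KO, went with higher means of the 3p arms, short of the threshold. Low HIF1α-KO values chose the members, and the 3p arms had the larger falls there, which by itself favours higher values in the double knockout. The p-values of this comparison are therefore not independent of the choice. miR-105-3p was 1.92-fold higher (log2 0.94, 95% interval 0.20 to 1.67, unadjusted p = 0.0159 and adjusted p = 0.213 by edgeR) and miR-767-3p 1.55-fold higher (0.63, 0.09 to 1.18, unadjusted p = 0.0251 and adjusted p = 0.256 by edgeR). Every double knockout library was above every HIF1α-KO library for both 3p arms, and the share of all 562 miRNAs so separated was not counted. The 5p arms overlapped, with 0.22 for miR-105-5p (-0.12 to 0.56, edgeR adjusted p = 0.621) and -0.18 for miR-767-5p (-0.60 to 0.23, edgeR adjusted p = 0.758). The median of the 4 was 0.42 on the log2 scale and that of all 562 miRNAs 0.02. Thus 0 of 4 members were called by edgeR, beside 1.42% of the 562 miRNAs (8, all lower in the double knockout). At an unadjusted p under 0.05 there were 2 of 4 members and 84 of 562 miRNAs, and DESeq2 called 25 and limma with a pseudocount of 1 called 16, no member among them. The edgeR count fell to 0 without HIF1α-KO replicate 2 or without HIF1α/HIF2α-KO replicate 1, to 3 without HIF1α-KO replicate 1 or HIF1α/HIF2α-KO replicate 3, and was 14 without HIF1α/HIF2α-KO replicate 2.

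The exact permutation test of 3 against 3 libraries, two-sided, cannot go below p = 0.1, and none of the 16 tests of the members' CPM in these 4 comparisons passed 0.05. The smallest adjusted permutation p was 0.320, shared by the 5 tests at p = 0.1 (miR-105-5p in both HIF2α-KO comparisons, miR-767-5p in hypoxia against normoxia and the 3p arms in HIF1α/HIF2α-KO against HIF1α-KO).

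The share of each arm gives the strand of each hairpin that predominated in the reads. It is built from the same counts by which the members were chosen, and the 3p arms had the larger falls in HIF1α-KO, so the HIF1α-KO shares are not independent of that choice. Of the summed counts of both arms, the 5p arm took 95.28% for miR-105 and 94.13% for miR-767. Over single libraries the miR-105 share ran from 91.89% (95% Wilson interval 89.41 to 93.83%) in HIF2α-KO replicate 2 to 96.72% (94.74 to 97.97%) in HIF1α-KO replicate 1. The miR-767 share ran from 89.78% (86.0 to 92.63%) in HIF1α/HIF2α-KO replicate 3 to 96.54% (94.53 to 97.83%) in HIF1α-KO replicate 3. Wilson intervals cover counting error only.

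By group, the 5p share of miR-105 was 95.39 ± 0.360% in control normoxia, 94.96 ± 2.43% in control hypoxia, 96.56 ± 0.160% in HIF1α-KO, 94.47 ± 2.29% in HIF2α-KO and 94.40 ± 1.28% in HIF1α/HIF2α-KO (SD, n = 3). That of miR-767 was 94.70 ± 0.811%, 93.22 ± 1.32%, 95.27 ± 1.30%, 94.73 ± 2.25% and 91.86 ± 2.01% in the same order. In both hairpins HIF1α-KO had the highest mean 5p share and HIF1α/HIF2α-KO the lowest. The double knockout minus HIF1α-KO was -2.16 percentage points for miR-105 and -3.41 points for miR-767, with no overlap between the libraries in either. An exact permutation test, two-sided and subject to that dependence, gave p = 0.1 for both, the smallest value possible, and 0.4 after adjustment over 8 tests of arm shares. Nothing is read from either result, because the larger 3p falls in HIF1α-KO, which entered the choice, raise its 5p share. The other 6 tests had exact permutation p-values from 0.2 to 1.

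**Figure D4:**
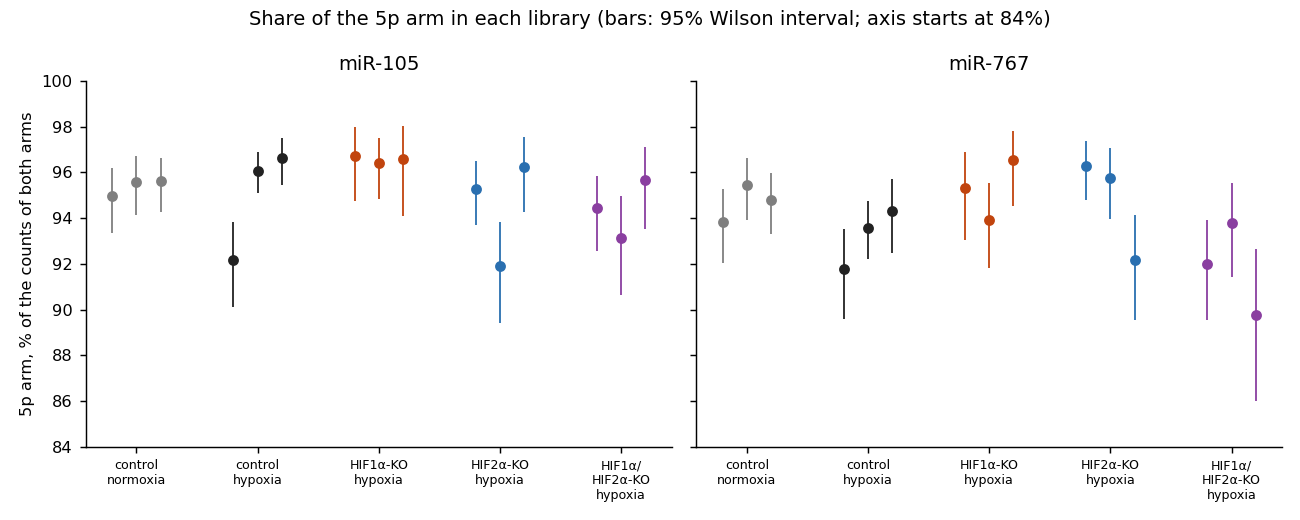
Each point is the share of the 5p arm, in percent of the counts of both arms, in 1 library, with its 95% Wilson interval; groups run along the x axis and the y axis starts at 84%. All shares lie between 89.78 and 96.72%, and for both miRNAs the HIF1α-KO libraries are above the HIF1α/HIF2α-KO libraries.

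miR-105-5p and miR-767-5p come from neighbouring hairpins, and their ratio varied between libraries. It averaged 1.14 over the 15 libraries and ran from 0.713 in HIF1α-KO replicate 3 to 1.68 in HIF1α/HIF2α-KO replicate 3. Group means were 1.10 ± 0.017 in control normoxia, 1.30 ± 0.237 in control hypoxia, 1.00 ± 0.268 in HIF1α-KO, 0.974 ± 0.101 in HIF2α-KO and 1.33 ± 0.337 in HIF1α/HIF2α-KO (SD, n = 3). The control normoxia libraries were the tightest, at 1.10, 1.08 and 1.11, while the HIF1α/HIF2α-KO libraries spread from 1.00 to 1.68.

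One feature of the counts bears on that ratio. The deposited miR-105 counts were even numbers in 13 of 15 libraries for the 5p arm and in 14 of 15 for the 3p arm, whereas the miR-767 counts were even in 7 and 8 of 15. Over all miRNAs with at least 10 counts in every library, 50.8% of values were even for the 329 that come from 1 hairpin and 66.7% for the 31 others that come from 2, and counts of the 5 miRNAs from 3 hairpins were divisible by 3 in 58.7% of values, against 34.0% for those from 1. Whether reads matching both miR-105 hairpins were counted once for each is not given in the sources used here and was not tested. If every such read was counted for both hairpins, the mean ratio of the 5p arms would be 0.570 in place of 1.14, and fold changes between groups would stay as they are. Levels of the 2 miRNAs are therefore set side by side only as deposited, and the counting intervals of miR-105 may be too narrow.

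Among all 562 miRNAs, those whose log2 CPM followed the mean of the 4 members most closely over the 15 libraries were miR-15b-5p (Pearson's r 0.908, Spearman's rho 0.832), miR-503-5p (0.885 and 0.761), miR-210-5p (0.868 and 0.750), miR-584-5p (0.827 and 0.650) and miR-550a-3p (0.783 and 0.775). The members were picked for a difference between the groups and the libraries share that difference, so these values are a description. Only miR-503-5p of the 5 is also on chromosome X. Between HIF1α-KO and control cells in hypoxia the members had log2 fold changes of -1.61 to -0.70. Within that range were miR-503-5p (-0.73, SE 0.15), miR-550a-3p (-0.79, SE 0.26) and miR-584-5p (-0.85, SE 0.19). miR-210-5p fell further (-1.96, SE 0.30). miR-15b-5p, which ranged only from 136 to 199 CPM over all libraries, fell less (-0.34, SE 0.11). The members themselves correlated with their own mean at r from 0.852 for miR-767-5p to 0.924 for miR-105-3p. Each member is part of that mean, which by itself raises its r, so these values are not comparable with those of the other miRNAs.

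**Figure D5:**
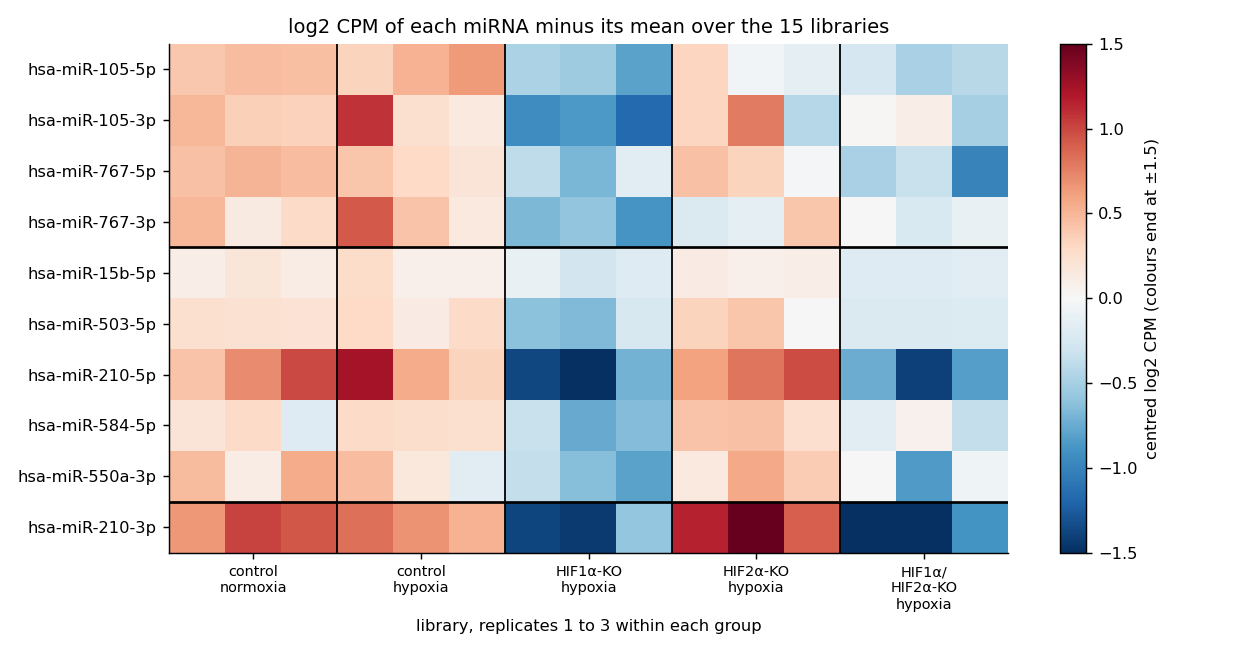
Colours give log2 CPM minus the mean of each miRNA over the 15 libraries, from blue (lower) to red (higher), with libraries in columns by group and miRNAs in rows: the 4 members, the 5 miRNAs most like them and miR-210-3p. The HIF1α-KO columns are blue for all 4 members, and the HIF1α/HIF2α-KO columns are blue for the 5p arms and near white in several libraries for the 3p arms.

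Other miRNAs of the region that passed the filter were about as low as the 3p arms of the members. Within 5 Mb of MIR105-1 the reference holds 12 other hairpins with 13 mature miRNAs, of which 9 were listed in the files and 3 passed the filter. The 3 were miR-224-5p, at 0.410 to 4.77 CPM, miR-452-5p, at 0.0977 to 3.13 CPM, and miR-664b-3p, at 0.801 to 2.28 CPM. None of them was called by edgeR in the 4 tested comparisons. Between HIF1α-KO and control cells in hypoxia the log2 fold change was -0.26 (SE 0.77) for miR-224-5p, -0.54 (SE 1.03) for miR-452-5p and -0.32 (SE 0.40) for miR-664b-3p, with overlapping libraries in each. The members had -1.61 to -0.70, and the standard errors of miR-224-5p and miR-452-5p are too wide to set them apart from these. The confidence interval of miR-664b-3p, -1.18 to 0.53, included the values of miR-105-5p and miR-767-5p, so it is not set apart from the 5p arms either. The values of the 3p arms lay below that interval, and differences between miRNAs were not tested.

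The miR-29 family, which shares the 7 letters of the miR-767-5p seed, was far more abundant and did not have the pattern of the members. miR-29a-3p stood at 7982 ± 450 CPM in control hypoxia and 9535 ± 689 CPM in HIF1α-KO (SD, n = 3), against 58.9 and 36.3 CPM for miR-767-5p. On the log2 scale HIF1α-KO differed from control hypoxia by 0.26 (SE 0.11) for miR-29a-3p, 0.45 (SE 0.27) for miR-29b-3p and 0.10 (SE 0.28) for miR-29c-3p, and by -0.70 (SE 0.20) for miR-767-5p. Levels of different miRNAs depend on how well each ligates and amplifies, so the gap in abundance is approximate.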

How the data were processed

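The values deposited for each of the 15 libraries were raw read counts of every mature miRNA, whole numbers that the authors had not normalised. The submitters' processing notes name HISAT2, StringTie and DESeq2 without their roles, and the study's methods add quantile normalisation by limma. The genome build and the treatment of reads that match several hairpins are not given in the sources used here. Such choices bear on miR-105, whose arms are encoded identically by 2 hairpins.

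Samples were grouped by genotype, oxygen and replicate in their labels. The members and the lists were chosen with earlier results of these data known. Counts were filtered with filterByExpr, normalised by TMM and fitted over all 15 libraries with edgeR 4.0.16 (R 4.3.3), and its quasi-likelihood test was adjusted by Benjamini-Hochberg over 562 miRNAs with a threshold of 0.05. SE is the absolute log2 fold change divided by the root of F. Alternatives used DESeq2 1.42.0 and limma 3.58.1 on quantile-normalised log2(CPM + 1) or log2(CPM + 0.5). CPM used the library totals, 10360337 to 22496373 counts before scaling, multiplied by the TMM factors. No pair of libraries of a group agreed within sampling noise (smallest chi-square per degree of freedom 61.1).

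Named miRNAs were the 4 members, miR-210, the miR-29 family, the 5 miRNAs most correlated with the members (prior count 2) and those within 5 Mb that passed the filter. Marker lists covered endothelial, blood, epithelial, muscle, liver, neural and glioma cells. Of the 1707 names, 1545 matched the RefSeq table. The fits were tested on simulated counts.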

Additional observations from a re-analysis of the deposited data

Results flagged for a closer look

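For 3 of the 4 members the fitted value of HIF2A loss had opposite signs in the presence and in the absence of HIF1A, and the difference between them was not tested. For 2 of them every knockout library lay on that side of the mean of the group it was compared with. For miR-105-5p the log2 fold change was -0.44 in HIF2α-KO against control cells and 0.22 in HIF1α/HIF2α-KO against HIF1α-KO. For miR-767-3p it was -0.50 and 0.63. For the other, miR-105-3p, it was -0.25 and 0.94, but its HIF2α-KO libraries lay on both sides of the control mean. None of these values was called by edgeR's quasi-likelihood test. The members were chosen for high control hypoxia and low HIF1α-KO values. That choice by itself favours negative values against control cells and positive values against HIF1α-KO, so nothing is read from the signs. The share of all miRNAs with such opposite signs was not counted.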

How the results depend on the processing

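Each value of the 4 members in the 4 tested comparisons was refitted under 18 other settings. None of the 288 refits called a member, and 281 kept the sign. The smallest adjusted p was 0.069, for miR-105-5p in HIF2α-KO against control hypoxia by edgeR without HIF2α-KO replicate 1. In the comparisons that differ in HIF1A, 430 of 432 refits kept the sign. The exceptions were miR-767-3p in HIF1α/HIF2α-KO against HIF2α-KO, at 0.04 with total-count scaling and 0.12 without HIF2α-KO replicate 3. In HIF1α-KO against control hypoxia, limma with log2(CPM + 1) gave -1.08 for miR-105-3p and -0.93 for miR-767-3p, as the pseudocount shrinks low levels. Leaving out single libraries gave, in that comparison, -1.15 to -1.003 for miR-105-5p, -1.75 to -1.23 for miR-105-3p, -0.83 to -0.55 for miR-767-5p and -1.43 to -1.03 for miR-767-3p. Same-numbered replicates did not deviate together in every pair: their correlations were 0.48, 0.175 and 0.0533 for HIF2α-KO and control hypoxia, -0.24, -0.08 and -0.06 for hypoxia and normoxia in control cells, and -0.617 to 0.554 over all comparisons. They were taken to share only a number. With the replicate block 9 miRNAs in place of 8 were called in HIF1α/HIF2α-KO against HIF1α-KO and 0 in the other tested comparisons, no member among them.

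The 8 calls in HIF1α/HIF2α-KO against HIF1α-KO became 25 with DESeq2, 16 and 18 with limma at pseudocounts of 1 and 0.5, 26 without a filter, 4 with at least 10 counts in every library, 5 with the miR-126 set as covariate and 0 from the compared libraries alone. Leaving out single libraries gave 0 (without HIF1α-KO replicate 2 or HIF1α/HIF2α-KO replicate 1) to 14. Without a filter 11 miRNAs were called in HIF2α-KO against control hypoxia, 15 in hypoxia against normoxia and 13 in HIF2α-KO against control normoxia. Without HIF2α-KO replicate 1 there were 10 and 18 calls in the HIF2α-KO comparisons with hypoxia and normoxia, against 0 to 1 and 0 without any other library. The causes were not tested. Total-count scaling moved the median log2 fold change of all miRNAs in HIF2α-KO against control hypoxia from -0.01 to -0.15, and miR-105-5p there to -0.57. Dividing counts by the number of hairpins, chosen after seeing the data, changed no call of a member. Depth limited the 3p arms, at 12 to 93 counts per library.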
